A study of Homo sapiens with 15 samples.

Results

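Genes of fatty acid oxidation and of its peroxisomal branch were followed by RNA-seq in 15 libraries made from HCC1954 breast cancer cells, which are HER2-positive. The list held 48 genes in 8 steps, from fatty acid uptake to ketone body use. Of these, 47 had a row in the tables and 34 reached a normalized count of 10 in 3 or more libraries, as did 10050 of all 19843 gene names; FABP5 was not analysed here. Just inside the rule stood PPARGC1A, with 3 libraries at 10 or more, and ACAA2, with 4; just outside stood EHHADH, with 2. The libraries came from parental cells (Pa, 3 libraries), cells of synchronous brain metastases (S-BM, 4), brain-tropic cells that stayed latent or residual (Lat, 4) and cells of metachronous brain metastases (M-BM, 4). RNA of all 4 groups was taken after overnight culture in R3F medium, so none of the values was measured in brain. The labels name no drug, no genetic change and no age, and give neither the number of animals or clones behind a group nor whether its libraries were independent cultures. The p-values therefore measure the spread between these libraries, which may be technical.

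Fatty acids are taken up, bound to coenzyme A, passed into mitochondria as carnitine esters and shortened there in repeated cycles of dehydrogenation, hydration, dehydrogenation and thiolysis. Peroxisomes shorten very long and branched fatty acids with enzymes of their own and hand the shortened chains on as carnitine esters. The nuclear receptors PPARA and PPARD, with the coactivators PPARGC1A and PPARGC1B, are known to raise transcription of many of these genes. Ketone bodies are a fuel that brain tissue can use, and OXCT1 carries out the rate-limiting step of their use.

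Between 13.25 and 21.84 M reads per library were assigned to genes, and 3 reads corresponded to a normalized count of 0.136 to 0.225; this limit covers counting error only. All 6 epithelial markers checked reached 10 (summed normalized counts of 3730 to 10163 per library), while the 3 astrocyte markers in the tables summed to at most 0.67. The 4 endothelial markers, of which PECAM1 and CDH5 reached 10, summed to 14.3 to 27.7 in S-BM and 20.6 to 28.5 in Pa but 6.97 to 7.92 in Lat and 4.77 to 11.3 in M-BM. The 4 fibroblast and pericyte markers in the tables, of which COL1A1 reached 10, summed to 6.44 to 9.08 in S-BM, 10.25 to 12.85 in Pa, 10.47 to 27.8 in Lat and 11.18 to 15.27 in M-BM, so S-BM lay below the other groups. Neuronal markers (4, with MAP2 and TUBB3 at 10) summed to 50.13 to 77.53 in S-BM, 34.78 to 53.27 in Lat and 33.98 to 45.69 in M-BM. Microglial and macrophage markers (6, with CSF1R and CD68 at 10) summed to 11.54 to 29.45, 22.04 to 40.02 and 16.99 to 22.31 in that order. For oligodendrocyte markers (4, with MBP at 10) the sums were 77.47 to 107.67, 101.53 to 130.61 and 105.02 to 160.35. Pa lay at 49.86 to 63.66 for neuronal, 17.64 to 20.99 for microglial and 105.64 to 112.39 for oligodendrocyte markers. The part of these markers in the results was not tested. S-BM fell into pairs: ERBB2, which encodes HER2, stood at 4109 and 4642 in S-BM 1 and 2 and at 353 and 367 in S-BM 3 and 4. Counts of S-BM 3 and S-BM 4 differed by 3.4 times the sampling noise (chi-square per degree of freedom). The other pairs within S-BM differed by 33.6 to 67.7 times. Lat 1 and Lat 2 differed by 3.88 times, and Lat 4 differed from them by 8.83 and 13.27 times. Lat 3 differed from the other Lat libraries by 36.75 to 42.1 times. No library was merged with another, and the fit counted each as a replicate. The close libraries may be less independent than that, in which case the p-values are too small. Results that rest on S-BM 3 and S-BM 4 are given with and without them.

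The question was how levels of these genes differed along the steps of the pathway between the 4 groups. Of the 34 genes, 31 passed the filter of the test (10 or more in 4 of the 12 brain-derived libraries); ACSL5, ACAA2 and PPARGC1A did not. In Lat, 5 were higher and 15 lower than in S-BM by limma with Benjamini-Hochberg adjustment over 9646 genes, at an adjusted p under 0.05. That is 64.5% of the 31, close to the background of 59.7% of all genes tested, so the share called is no result about these genes; the background was 30.2% higher and 29.4% lower. In M-BM, 3 were higher and 13 lower than in S-BM, 51.6% against a background of 52.7% (26.9% higher, 25.8% lower). Median log2 fold changes were -0.29 (Lat) and -0.22 (M-BM) for the 31 genes and 0.01 in either comparison for all genes. The comparisons share the S-BM libraries. The count of higher genes was 3 in Lat without S-BM 2 or without Lat 4. Without S-BM 3 and S-BM 4 it was 6 in Lat and 5 in M-BM. In bulk RNA, fewer cells with a transcript and less transcript per cell cannot be told apart.

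**Figure D1:**
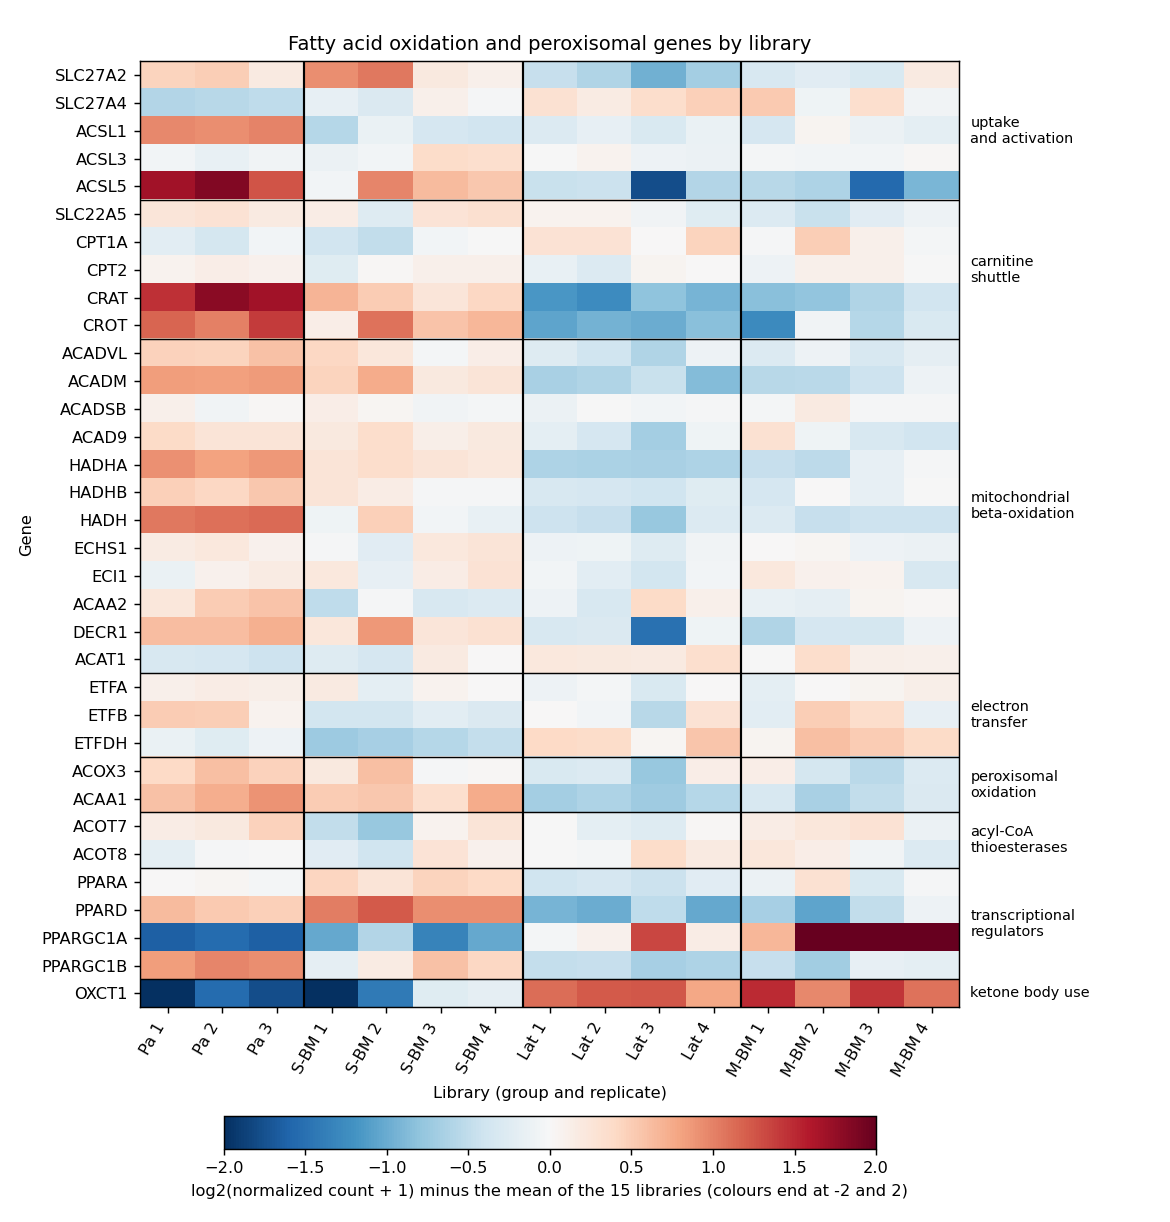
Levels of the 34 genes (rows, ordered by step) in the 15 libraries (columns, by group), as log2(normalized count + 1) minus the gene's mean over all libraries; red is above that mean, blue below, and colours end at -2 and 2. CRAT, CROT, ACADM, HADHA and ACAA1 are red in Pa and S-BM and blue in Lat, while OXCT1 and PPARGC1A run the other way.

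Genes called at 1.5-fold or more were 2 higher (ETFDH and OXCT1) and 10 lower (SLC27A2, CRAT, CROT, ACADM, HADHA, DECR1, ACAA1, PPARA, PPARD and PPARGC1B) in Lat against S-BM, where 33.3% of all genes tested met that rule. M-BM had 2 higher and 8 lower, where the background was 26.2%. Lat and S-BM libraries did not overlap for 19 of the 31 genes (61.3%, background 54.5%), and M-BM and S-BM libraries did not overlap for 11 (35.5%, background 46.2%). By step, the mitochondrial cycle had 1 gene higher and 7 lower of 11 tested in Lat (median log2 fold change -0.53), against 0 and 5 in M-BM (median -0.34). The 3 tested regulators were lower in both groups. PPARGC1A, the other regulator, was not tested under this filter. With the filter at a value of 1 it was 2.60-fold higher in Lat and 6.97-fold higher in M-BM. It met the rule for members only through 3 M-BM libraries, so a difference was built into its selection. Both tested peroxisomal enzymes were lower in Lat, but S-BM carried ACAA1 through the filter and the call of ACOX3 was lost in 7 of 23 alternatives. Electron transfer (3 tested) had 1 gene higher and none lower in either group, and the 2 thioesterases tested had none called.

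**Figure D2:**
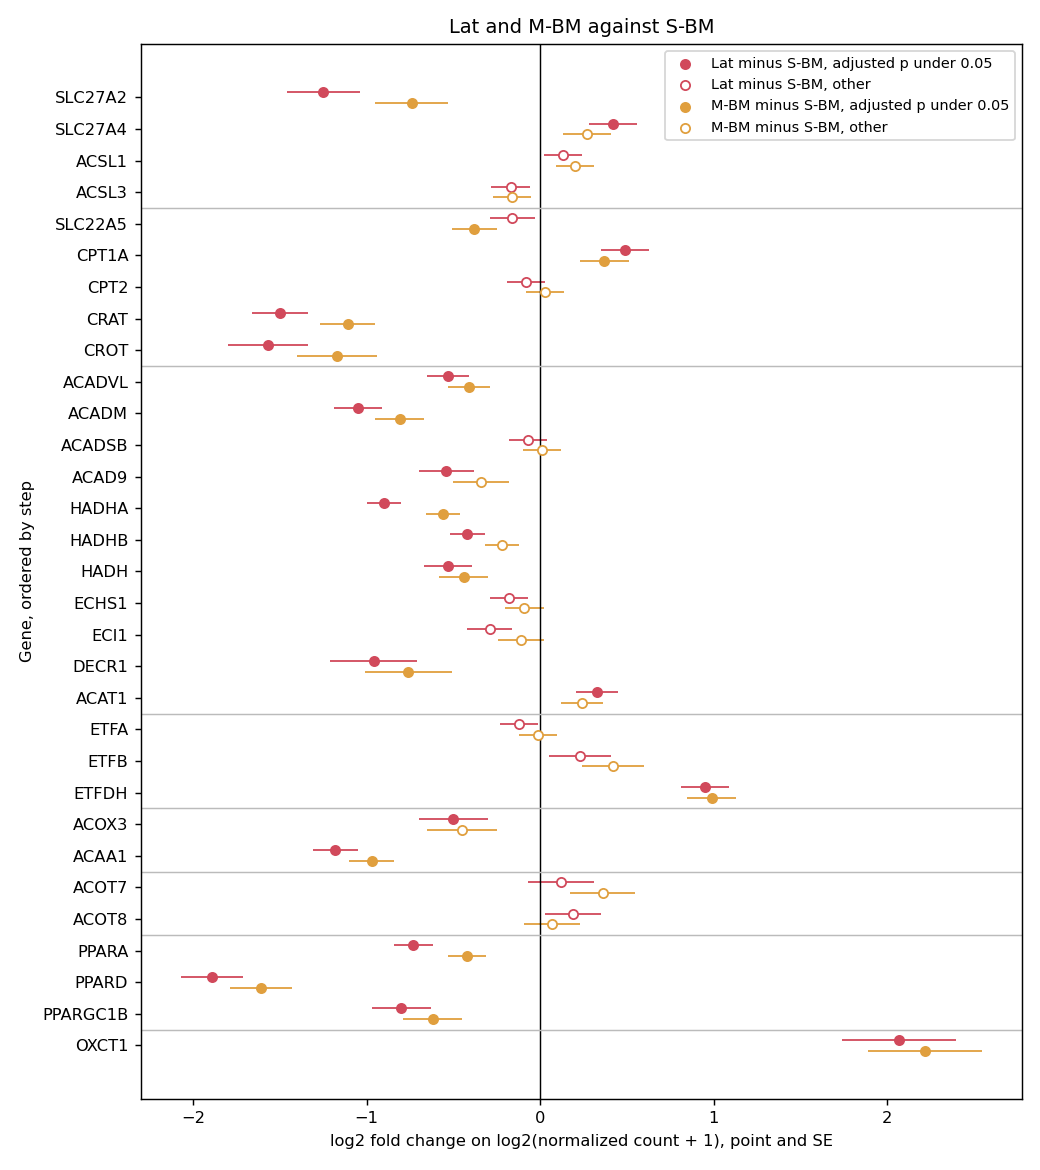
log2 fold change against S-BM with its standard error for the 31 genes tested (vertical axis, ordered by step), red for Lat and orange for M-BM; filled points passed an adjusted p of 0.05. Filled points lie left of 0 for 15 genes in Lat and 13 in M-BM, and OXCT1 stands farthest to the right, at 2.07 and 2.22.

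Promoter sequence was read for genes that moved together or the other way. RefSeq windows of 250 bases ahead of the start site (GRCh38.p14) were found for 30 of the 34 genes; CRAT, DECR1, ETFDH and ACAA1 had none in the table. CROT, ACADM, HADHA and PPARD were lower in Lat and M-BM, and OXCT1 was higher. In the sequences below, written 5′ to 3′ on the gene's strand, capitals mark GC boxes (GGGCGG, or CCGCCC where the box is on the other strand) and CCAAT boxes (CCAAT, or ATTGG on the other strand).
CROT (chr7:87345414-87345663, plus strand): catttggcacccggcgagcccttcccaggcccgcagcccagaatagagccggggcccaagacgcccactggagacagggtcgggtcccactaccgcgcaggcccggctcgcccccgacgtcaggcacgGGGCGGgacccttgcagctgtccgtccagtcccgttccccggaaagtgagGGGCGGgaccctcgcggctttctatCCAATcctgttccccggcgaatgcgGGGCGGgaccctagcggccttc
ACADM (chr1:75724459-75724708, plus strand): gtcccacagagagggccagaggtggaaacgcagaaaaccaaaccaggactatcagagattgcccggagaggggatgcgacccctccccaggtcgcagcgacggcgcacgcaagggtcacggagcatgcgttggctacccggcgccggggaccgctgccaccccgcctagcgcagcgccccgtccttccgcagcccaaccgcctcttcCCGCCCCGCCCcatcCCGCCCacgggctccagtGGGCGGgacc
HADHA (chr2:26244633-26244882, minus strand): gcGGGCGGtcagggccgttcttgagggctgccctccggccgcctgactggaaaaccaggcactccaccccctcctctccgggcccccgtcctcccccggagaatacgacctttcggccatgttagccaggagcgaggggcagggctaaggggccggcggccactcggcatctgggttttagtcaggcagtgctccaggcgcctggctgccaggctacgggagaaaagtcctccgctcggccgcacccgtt
PPARD (chr6:35342308-35342557, plus strand): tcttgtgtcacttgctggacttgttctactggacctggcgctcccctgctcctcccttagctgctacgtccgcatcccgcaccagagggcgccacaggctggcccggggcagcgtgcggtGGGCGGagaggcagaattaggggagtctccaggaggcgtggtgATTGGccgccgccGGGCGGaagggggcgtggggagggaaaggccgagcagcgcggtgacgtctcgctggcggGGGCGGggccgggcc
OXCT1 (chr5:41870426-41870675, minus strand): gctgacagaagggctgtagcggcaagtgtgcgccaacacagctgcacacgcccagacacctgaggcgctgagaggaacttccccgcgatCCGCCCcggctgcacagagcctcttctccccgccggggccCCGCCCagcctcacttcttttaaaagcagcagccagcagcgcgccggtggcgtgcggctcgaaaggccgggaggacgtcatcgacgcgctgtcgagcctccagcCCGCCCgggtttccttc
Of the windows printed, CROT held 3 GC boxes and a CCAAT box, ACADM 4 GC boxes of which an adjoining pair shares a base, HADHA 1, PPARD 3 with a CCAAT box, and OXCT1 3. Searched on both strands, GGGCGG was found in 23 of the 30 windows (76.7%), against 42.3% of all 27305 RefSeq promoter windows of this length and 56.0% of the 15843 of protein-coding genes. The windows were also richer in G and C, with a median of 69.4% against 58.0% in all windows and 62.4% in protein-coding ones. The 30 genes had passed the rule on level, while the background windows were taken whatever the level of their genes. Whether these differences are particular to the pathway was therefore not tested. CCAAT was in 10 (33.3%, 33.0% of all windows) and TATAAA in ACADVL alone (3.33%, 11.1% of all). The direct repeat AGGTCANAGGTCA, the consensus of a PPAR response element, was in none of the 30 and in 0.0183% of all windows. The single motif AGGTCA, which that repeat contains, was in ACSL5 and ACOT7 (6.67%, 12.1% of all). AAGGTCA was in none (3.46% of all) and the NRF1 motif in ACAD9 alone (3.33%, 5.53% of all). These matches are letters in a window, not bound sites. Start sites of HADHA (chr2, 26244632, minus strand) and HADHB (26244939, plus strand) lie head to head with 306 bases between them, and their windows overlap by 194 bases.

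Uptake and activation was mixed, with 1 of 4 tested genes higher and 1 lower in Lat. SLC27A2 (chr15:50182196-50236385), a fatty acid transport protein with very long-chain acyl-CoA synthetase activity, measured 38.5, 42.3, 22.9 and 21.3 in S-BM 1 to 4, and 14.1, 12.7, 9.63 and 11.9 in Lat 1 to 4. M-BM 1 to 4 measured 15.6, 16.7, 15.8 and 22.5, and Pa 1 to 3 measured 27.3, 28.2 and 22.5. S-BM was uneven, with libraries 1 and 2 above 3 and 4; Lat lay below every S-BM library, and M-BM 4 lay above S-BM 4. The gene was 2.38-fold lower in Lat (log2 change -1.25, SE 0.21, adjusted p = 0.000179) and 1.68-fold lower in M-BM (-0.74, SE 0.21, adjusted p = 0.00885). Without S-BM 3 and S-BM 4 the log2 fold changes were -1.67 and -1.17. SLC27A4, another transporter of the family, was 1.33-fold higher in Lat (adjusted p = 0.0194), a call lost without S-BM 2 (adjusted p = 0.0558) or Lat 4 (0.0567). In M-BM it stood at 78.7 ± 17.02 against 64.4 ± 7.61 in S-BM (SD, n = 4; adjusted p = 0.12).

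The synthetases ACSL1 and ACSL3, which attach long-chain fatty acids to coenzyme A, did not pass the test in either comparison (ACSL1 adjusted p = 0.306 and 0.124, ACSL3 0.198 and 0.237). ACSL1 (chr4:184755595-184826594) measured 124, 168, 147 and 142 in S-BM 1 to 4, 152, 164, 149 and 169 in Lat, and 146, 192, 169 and 161 in M-BM. Pa 1 to 3 measured 362, 353 and 366, above every brain-derived library. ACSL5, a synthetase of the same family, ran from 26.3 to 40.1 in Pa, 9.91 to 21.5 in S-BM, 2.33 to 7.48 in Lat and 2.87 to 6.80 in M-BM.

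The carnitine shuttle had 1 gene higher and 2 lower of 5 tested in Lat, and 1 and 3 in M-BM. CPT1A (chr11:68754620-68844277), the outer-membrane carnitine palmitoyltransferase and rate-limiting entry step, measured 77.6, 72.0, 97.5 and 101 in S-BM 1 to 4, 124, 124, 102 and 138 in Lat, and 99.7, 143, 109 and 99.1 in M-BM. Pa measured 87.7, 79.0 and 97.8, within the S-BM range. Every Lat library lay above every S-BM library, while M-BM 1 and M-BM 4 lay below S-BM 4. CPT1A was 1.40-fold higher in Lat (log2 change 0.49, SE 0.14, adjusted p = 0.00948). Its call in M-BM (1.29-fold, adjusted p = 0.0451) was lost in 12 of 23 alternatives, among them without S-BM 1 (adjusted p = 0.112), S-BM 2 (0.125), Lat 1 (0.0583), Lat 2 (0.0576), M-BM 2 (0.143) or M-BM 3 (0.0729). CPT2 (chr1:53196824-53214197), which rebuilds acyl-CoA on the inner membrane, measured 25.5, 30.6, 32.4 and 32.4 in S-BM, 27.1, 24.9, 31.5 and 30.4 in Lat, 28.0, 32.6, 32.4 and 30.0 in M-BM, and 31.8, 33.2 and 32.1 in Pa. The 4 groups overlapped, apart from Pa lying above Lat, and CPT2 did not pass the test (adjusted p = 0.526 in Lat, 0.851 in M-BM).

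CRAT (chr9:129094794-129110793), the carnitine acetyltransferase of short chains, measured 19.1, 16.7, 13.8 and 15.7 in S-BM 1 to 4, 4.57, 4.26, 6.21 and 5.58 in Lat, and 6.01, 6.24, 7.25 and 8.61 in M-BM. Pa measured 33.5, 42.8 and 39.0. The order was Pa, then S-BM, then the other 2 groups, which overlapped each other. It was 2.82-fold lower in Lat (log2 change -1.50, SE 0.16, adjusted p = 4.63e-06) and 2.17-fold lower in M-BM (-1.11, SE 0.16, adjusted p = 8.4e-05). CRAT entered the test only through S-BM, where it reached 10, so a difference was built into its selection.

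CROT (chr7:87345664-87399794), the peroxisomal carnitine octanoyltransferase that readies shortened chains for export, measured 42.5, 83.7, 58.0 and 62.1 in S-BM 1 to 4, 18.2, 19.7, 19.1 and 21.2 in Lat, and 15.4, 36.8, 25.7 and 31.2 in M-BM. Pa measured 88.2, 79.3 and 104. Neither Lat nor M-BM reached the lowest S-BM library, and S-BM 2 alone reached into the Pa range. CROT was 2.96-fold lower in Lat (log2 change -1.57, SE 0.23, adjusted p = 5.85e-05) and 2.25-fold lower in M-BM (-1.17, SE 0.23, adjusted p = 0.000806). SLC22A5, the plasma membrane carnitine importer, was 1.30-fold lower in M-BM (adjusted p = 0.0243), a call lost without S-BM 3 (0.0697), S-BM 4 (0.0771), both of them (0.267) or M-BM 2 (0.07). In Lat it stood at 34.2 ± 3.46 against 38.8 ± 6.65 in S-BM (adjusted p = 0.293).

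**Figure D3:**
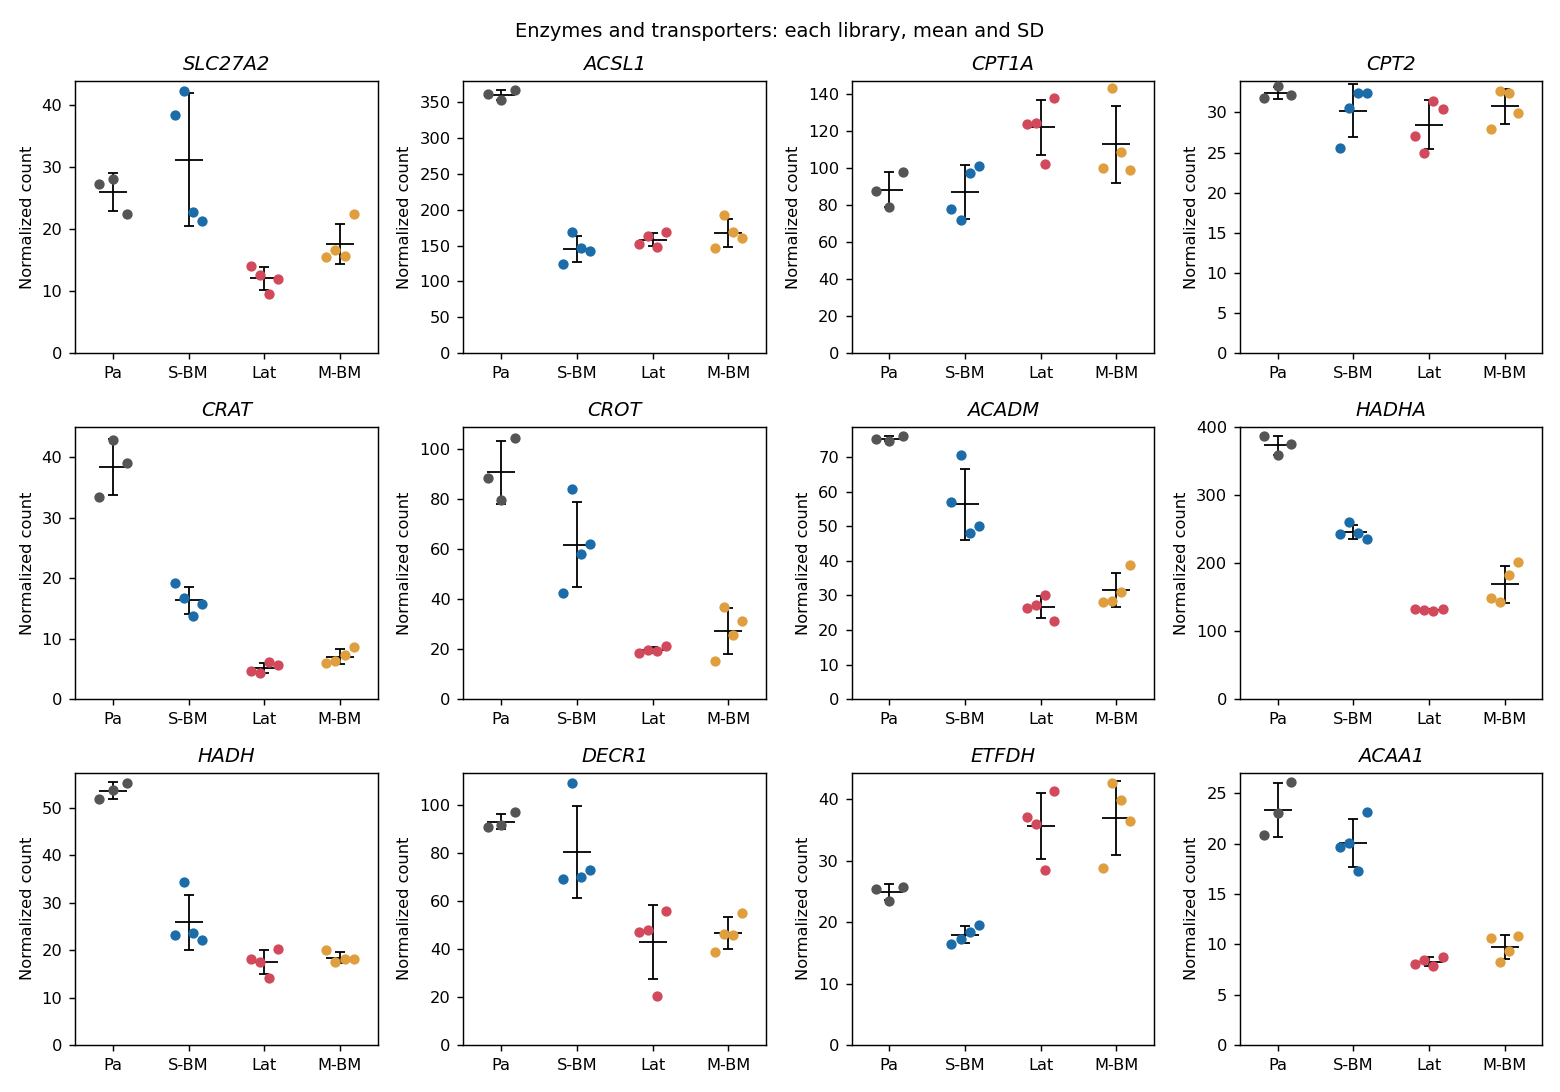
Normalized count (vertical axes, from 0) of 12 transporters and enzymes in each library (points) by group, with the group mean and SD (bars; n = 3 in Pa, n = 4 elsewhere). Lat points lie below every S-BM point for SLC27A2, CRAT, CROT, ACADM, HADHA, HADH, DECR1 and ACAA1 and above them for CPT1A and ETFDH; CPT2 overlaps.

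Acyl-CoA dehydrogenases open each turn of the mitochondrial cycle. ACADM (chr1:75724709-75763679), the medium-chain enzyme, measured 56.9, 70.6, 47.9 and 50.05 in S-BM 1 to 4, 26.3, 27.2, 30.2 and 22.5 in Lat, and 28.1, 28.5, 31.0 and 38.7 in M-BM. Pa measured 75.1, 74.7 and 76.0. No Lat or M-BM library reached S-BM, and no S-BM library reached Pa. ACADM was 2.07-fold lower in Lat (log2 change -1.05, SE 0.14, adjusted p = 2.59e-05) and 1.76-fold lower in M-BM (-0.81, SE 0.14, adjusted p = 0.000303). The very long-chain enzyme ACADVL was 1.44-fold lower in Lat (adjusted p = 0.00162) and 1.33-fold lower in M-BM (adjusted p = 0.0099). ACAD9, which also serves assembly of respiratory complex I, was 1.45-fold lower in Lat (adjusted p = 0.0088); in M-BM it stood at 27.2 ± 6.33 against 34.1 ± 2.36 (adjusted p = 0.0798), a difference that passed without M-BM 1 (0.0128) or Lat 3 (0.0494). ACADSB, of short branched chains from isoleucine, had means of 11.0 to 11.6 in the 4 groups and did not pass (adjusted p = 0.623 in Lat, 0.959 in M-BM).

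The trifunctional protein, which carries out the last 3 reactions on long chains, is made of HADHA and HADHB. HADHA (chr2:26190635-26244632) measured 244, 261, 245 and 236 in S-BM 1 to 4, 132, 132, 130 and 133 in Lat, and 149, 143, 182 and 201 in M-BM. Pa measured 387, 359 and 375. The 4 groups did not overlap at any point, in the order Pa, S-BM, M-BM and Lat from high to low. HADHA was 1.86-fold lower in Lat (log2 change -0.90, SE 0.10, adjusted p = 7.59e-06) and 1.47-fold lower in M-BM (-0.56, SE 0.10, adjusted p = 0.000534). HADHB (chr2:26244939-26290465), its head-to-head neighbour, was 1.34-fold lower in Lat (adjusted p = 0.00204); in M-BM it stood at 145 ± 15.8 against 168 ± 16.3 (adjusted p = 0.075), and this passed without S-BM 3 and 4 (0.0341), without M-BM 2 (0.0482) and with DESeq2 (0.0408).

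HADH (chr4:107989889-108035171), the dehydrogenase of short and medium chains, measured 23.2, 34.5, 23.7 and 22.1 in S-BM 1 to 4, 18.1, 17.5, 14.2 and 20.2 in Lat, and 20.1, 17.5, 18.1 and 18.1 in M-BM. Pa measured 51.9, 53.9 and 55.3, above all others. It was 1.44-fold lower in Lat (adjusted p = 0.0062) and 1.36-fold lower in M-BM (adjusted p = 0.0186), the second of which was lost without S-BM 2 (adjusted p = 0.0517). DECR1, the dienoyl-CoA reductase needed for polyunsaturated chains, measured 69.2, 109, 70.1 and 73.0 in S-BM, 47.1, 47.9, 20.4 and 55.6 in Lat, 38.7, 46.4, 45.9 and 55.1 in M-BM, and 90.8, 91.5 and 96.8 in Pa. S-BM 2 stood high and Lat 3 low, and neither Lat nor M-BM overlapped S-BM. DECR1 was 1.94-fold lower in Lat (log2 change -0.96, SE 0.25, adjusted p = 0.00481) and 1.69-fold lower in M-BM (adjusted p = 0.021); the M-BM call was lost without S-BM 2 (0.0657) or M-BM 1 (0.0576).

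ECHS1, the short-chain hydratase, and ECI1, the isomerase for unsaturated chains, did not pass (adjusted p = 0.167 and 0.0771 in Lat, 0.504 and 0.497 in M-BM). Without S-BM 2 both passed in Lat, with adjusted p-values of 0.024 for ECHS1 and 0.023 for ECI1, and ECI1 also without M-BM 4 (0.0468). ACAT1, the thiolase that also splits and forms acetoacetyl-CoA, was the 1 gene of the 11 tested in the mitochondrial cycle that was higher in Lat, at 1.26-fold (adjusted p = 0.0241). That call was lost without S-BM 1 (0.0712), S-BM 2 (0.0723) or Lat 4 (0.0637). In M-BM it stood at 58.2 ± 6.39 against 49.3 ± 8.26 (adjusted p = 0.0938), and it passed without S-BM 3 (0.0259) and without both S-BM 3 and S-BM 4 (0.00927). ACAA2, the general mitochondrial thiolase, ran from 6.10 to 13.95 over the 15 libraries and reached 10 in Pa and Lat 3 only.

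Electrons from the dehydrogenases pass through ETFA and ETFB to ETFDH, which delivers them to ubiquinone. ETFDH (chr4:158672296-158709623) measured 16.4, 17.3, 18.4 and 19.6 in S-BM 1 to 4, 37.1, 36.0, 28.5 and 41.4 in Lat, and 28.8, 42.7, 39.9 and 36.5 in M-BM. Pa measured 25.4, 23.4 and 25.8, between S-BM and the other groups with no overlap on either side. It was 1.93-fold higher in Lat (log2 change 0.95, SE 0.14, adjusted p = 4.9e-05) and 1.99-fold higher in M-BM (0.99, SE 0.14, adjusted p = 5.27e-05). ETFA did not pass (adjusted p = 0.346 and 0.921). ETFB stood at 36.4 ± 1.92 in S-BM, 43.6 ± 10.2 in Lat (adjusted p = 0.293) and 50.1 ± 12.6 in M-BM (adjusted p = 0.0631), and the M-BM difference passed without Lat 3 (0.0314), M-BM 1 (0.0301) or M-BM 4 (0.0376) and in 2 other alternatives.

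Of the peroxisomal enzymes, ACOX3 and ACAA1 could be tested. ACAA1 (chr3:38122715-38137127), the peroxisomal thiolase, measured 19.7, 20.04, 17.3 and 23.2 in S-BM 1 to 4, 8.01, 8.42, 7.82 and 8.79 in Lat, 10.6, 8.27, 9.29 and 10.8 in M-BM, and 20.8, 23.1 and 26.1 in Pa. S-BM and Pa overlapped, and both lay above all Lat and M-BM libraries. ACAA1 was 2.26-fold lower in Lat (log2 change -1.18, SE 0.13, adjusted p = 4.57e-06) and 1.96-fold lower in M-BM (-0.97, SE 0.13, adjusted p = 4.07e-05). It reached 10 in all S-BM and 2 M-BM libraries but in no Lat library, so S-BM carried it through the filter. ACOX3, the oxidase of branched chains, was 1.42-fold lower in Lat with overlapping groups (adjusted p = 0.041). That call was lost without S-BM 1 (0.0704), S-BM 2 (0.126), Lat 1 (0.0728), Lat 2 (0.0698) or Lat 3 (0.129), with quantile normalization (0.0775) and with no filter (0.0691). In M-BM, ACOX3 stood at 15.9 ± 3.46 against 22.2 ± 4.84 in S-BM (adjusted p = 0.0686), and this passed without Lat 3 (0.042), M-BM 1 (0.0287) or both S-BM 3 and S-BM 4 (0.0427) and in 2 other alternatives.

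The thioesterases ACOT7 and ACOT8, which release free fatty acids from coenzyme A, had no call. ACOT7 measured 16.98, 14.1, 25.6 and 29.3 in S-BM 1 to 4 and ran from 20.2 to 24.8 in Lat, 22.4 to 29.9 in M-BM and 27.0 to 34.0 in Pa. Its S-BM libraries fell into the pairs that ERBB2 showed, with S-BM 3 and 4 at least 1.5-fold above S-BM 1 and 2. Without S-BM 3 and 4 it was higher in Lat (log2 fold change 0.52, adjusted p = 0.0119) and in M-BM (0.76, adjusted p = 0.00173), and without S-BM 4 alone in M-BM (0.53, adjusted p = 0.0253). S-BM 3 and 4 stood apart from S-BM 1 and 2 by 1.5-fold or more for 3 of the 34 genes: ACOT7 and OXCT1 above (5.88%, background 1.74%) and SLC27A2 below (2.94%, background 2.43%).

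All 3 tested transcriptional regulators were lower in Lat and in M-BM than in S-BM. PPARD (chr6:35342558-35428178), a fatty acid receptor active in many tissues, measured 39.0, 45.1, 36.7 and 36.7 in S-BM 1 to 4, 9.35, 8.92, 12.9 and 8.72 in Lat, 11.4, 8.49, 13.0 and 17.5 in M-BM, and 29.6, 27.5 and 26.5 in Pa. S-BM was highest and Pa intermediate, neither overlapping another group. PPARD was 3.71-fold lower in Lat (log2 change -1.89, SE 0.18, adjusted p = 1.94e-06) and 3.05-fold lower in M-BM (-1.61, SE 0.18, adjusted p = 1.35e-05). PPARA (chr22:46150526-46243756), the receptor best known from liver, measured 90.9, 81.2, 92.2 and 89.5 in S-BM, 51.3, 53.1, 50.1 and 57.7 in Lat, 61.9, 83.6, 54.4 and 66.6 in M-BM, and 67.8, 69.6 and 65.7 in Pa. Lat lay below all S-BM and Pa libraries, while M-BM 2 reached into S-BM. PPARA was 1.66-fold lower in Lat (log2 change -0.73, SE 0.11, adjusted p = 0.000107) and 1.34-fold lower in M-BM (adjusted p = 0.00749; 0.0549 without S-BM 3 and 4).

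The coactivators differed in direction. PPARGC1B (chr5:149730310-149857959) measured 14.1, 18.01, 24.4 and 21.7 in S-BM 1 to 4, 11.2, 11.4, 9.73 and 10.04 in Lat, 11.3, 9.49, 14.2 and 13.9 in M-BM, and 29.2, 32.4 and 31.3 in Pa. It was 1.74-fold lower in Lat (log2 change -0.80, SE 0.17, adjusted p = 0.00105) and 1.54-fold lower in M-BM (adjusted p = 0.00702; 0.116 without S-BM 3 and 4). PPARGC1A (chr4:23792021-24472905) measured 0.513, 1.06, 0.225 and 0.524 in S-BM, 2.003, 2.27, 6.83 and 2.44 in Lat, and 3.89, 11.4, 16.2 and 12.1 in M-BM. In Pa it was at 0 in libraries 1 and 3 and at 0.063 in Pa 2, below the 3-read limit. All S-BM libraries lay below all Lat libraries, and 3 of the M-BM libraries lay above all Lat libraries. With the filter lowered to a value of 1, PPARGC1A was 2.60-fold higher in Lat (log2 change 1.38, SE 0.37, adjusted p = 0.00553) and 6.97-fold higher in M-BM (2.80, SE 0.37, adjusted p = 4.34e-05). The difference between M-BM and Lat (2.68-fold) did not pass (adjusted p = 0.168). Folds of so low a gene depend on the pseudocount of 1. PPARGC1A also met the rule for members only through 3 M-BM libraries, so a high level in M-BM was built into its selection.

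OXCT1 (chr5:41730065-41870425), the mitochondrial transferase that activates acetoacetate, had the largest fold change among the 31 genes in either comparison with S-BM. It measured 4.10, 7.03, 17.02 and 17.9 in S-BM 1 to 4, 45.6, 49.2, 49.6 and 35.4 in Lat, 59.0, 40.6, 56.5 and 44.6 in M-BM, and 3.93, 6.35 and 5.27 in Pa. S-BM 1 and 2 lay near Pa, S-BM 3 and 4 above them, and all Lat and M-BM libraries higher still. OXCT1 was 4.19-fold higher in Lat (log2 change 2.07, SE 0.33, adjusted p = 0.000124) and 4.65-fold higher in M-BM (2.22, SE 0.33, adjusted p = 0.000106). Without S-BM 3 and S-BM 4 the log2 fold changes were 2.83 and 2.98. OXCT1 reached 10 in 2 S-BM libraries, in all Lat and M-BM libraries and in no Pa library. It thus passed the filter through the groups where it was high, so a difference was built into its selection.

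**Figure D4:**
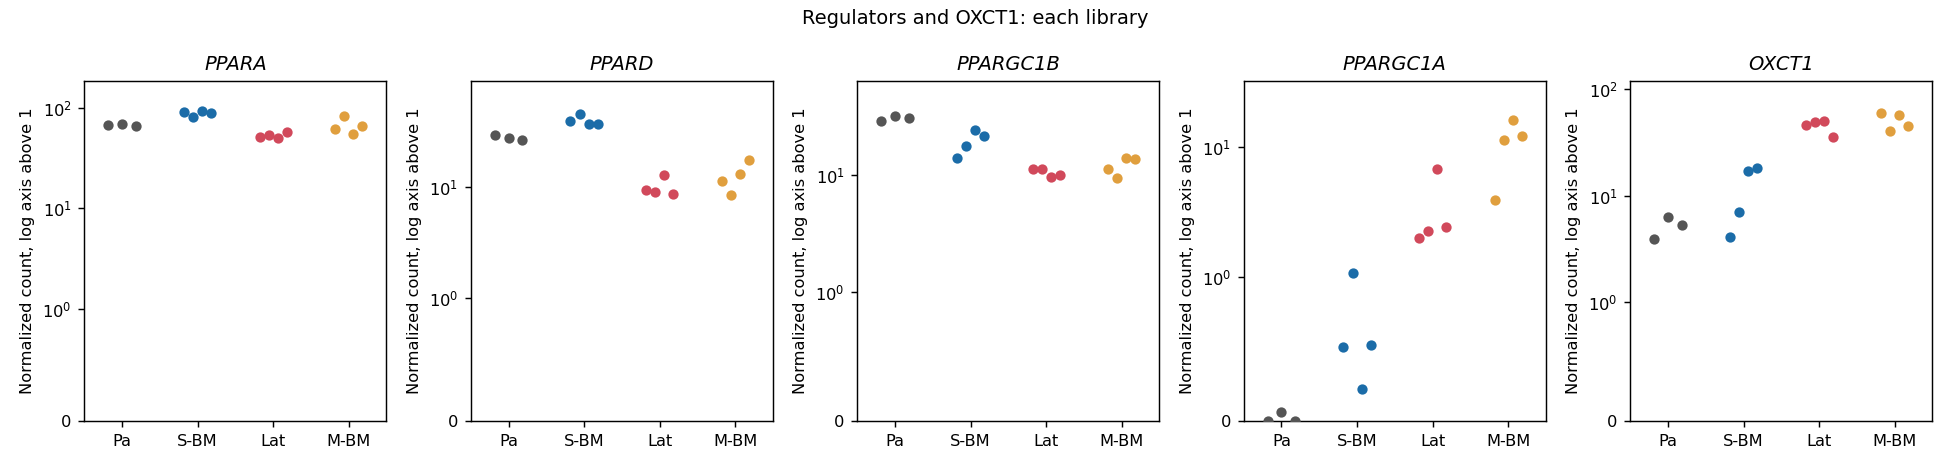
Normalized count in each library (points) by group for the 4 regulators and OXCT1, on vertical axes that are linear up to 1 and logarithmic above. PPARD is lowest in Lat and M-BM (8.49 to 17.5), and PPARGC1A and OXCT1 are highest there.

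Lat and M-BM were then compared with each other. None of the 31 genes passed (background 0.145%, 14 genes), and their lowest adjusted p was 0.228 with limma, 0.208 with edgeR and 0.064 with DESeq2. At an unadjusted p under 0.05, limma named 4 genes (SLC27A2, HADHA, PPARA and CRAT), as many as edgeR and DESeq2, where 10.9%, 11.1% and 12% of all genes met that level. The fold change was positive, M-BM above Lat, for 26 of the 31 genes, against 52.9% of all genes tested, and ranged from -0.22 to 0.51 on the log2 scale. Libraries of M-BM and Lat did not overlap for SLC27A2 and HADHA (6.45%, background 7.3%), with log2 fold changes of 0.51 (SE 0.21) and 0.34 (SE 0.10).

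Pa stands in a table of its own that was normalized separately, so its levels are described without a test, after multiplication by 1.0062. Mean levels were highest in Pa for 21 of the 34 genes (61.8%, against 35.7% of 10050 genes) and lowest in Lat for 20 (58.8%, against 33.2%). ACAA2, counted as highest in Pa, reached 10 in all 3 Pa libraries, 1 Lat library and no S-BM or M-BM library. Pa carried ACAA2 through the rule, so a high Pa level was built into its selection, also where it counts below as lower than Pa. CRAT, ACSL5 and ACAA1, also highest in Pa, reached 10 in no Lat library, and only ACAA1 did in M-BM (2 libraries). They met the rule through Pa and S-BM, so the same limit holds for them, also where CRAT counts as outside the brain-derived range. OXCT1 reached 10 in no Pa library and met the rule through Lat and M-BM, where it counts as above Pa. The order Lat, M-BM, S-BM, Pa from low to high was found for 14 (41.2%, against 20.2%). S-BM lay wholly above Pa for 4 genes and wholly below for 12 (all genes 21.6% and 21.5%), with a median log2 ratio to Pa of -0.16. Lat lay above Pa for 6 and below for 22 (35.2% and 36.7%; median -0.41), and M-BM above for 7 and below for 18 (33.5% and 33.7%; median -0.45); medians over all genes were 0 to within 0.01. For 4 of the 34 genes (11.8%, background 3.11%), the brain-derived range was cleared by every Pa library with a margin of 1.5-fold or more. ACSL1, CRAT and HADH lay above that range (background 1.98%) and PPARGC1A below (1.13%). PPARGC1A met the rule for members only through 3 M-BM libraries, so it had to differ there, and in Pa (at most 0.063) and S-BM 3 (0.225) it stood at or under 3 reads, so its margin to Pa cannot be measured. HADH dropped out when Pa was left unscaled or scaled by column sums, and ACSL5 joined when Pa 3 was left out.

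Below the rule were 13 genes with a row, and with the filter at a value of 1, 11 genes outside the main test could be tested (backgrounds 57.9% in Lat, 50.9% in M-BM). In Lat, 4 were higher and 5 lower and in M-BM 3 and 5. CPT1B, the muscle form of the entry enzyme, whose reads may be shared with its overlapping readthrough neighbour CHKB, was 2.29-fold higher in Lat (2.64 ± 0.663 in S-BM, 7.27 ± 0.684 in Lat, adjusted p = 2.93e-05) and 1.98-fold higher in M-BM (6.18 ± 1.14, adjusted p = 0.000218). BDH1, the dehydrogenase that interconverts the main ketone bodies, was higher, from 0.0962 ± 0.109 in S-BM, under the 3-read limit on average, to 1.48 ± 0.654 in Lat (adjusted p = 0.000109) and 1.62 ± 0.325 in M-BM (adjusted p = 8.3e-05). It was at most 0.253 in S-BM, so it passed the filter only through the groups where it was high. SLC25A20, the inner-membrane carnitine carrier, was 1.42-fold higher in Lat (adjusted p = 0.0379), while M-BM and S-BM stood at 5.85 ± 1.15 and 3.97 ± 1.08 (adjusted p = 0.0527).

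Lower in both groups were ACSL5 (2.52-fold in Lat, adjusted p = 0.00245; 2.70-fold in M-BM, 0.00189) and the peroxisomal HSD17B4, the multifunctional hydratase and dehydrogenase (2.07-fold, 0.00229; 1.79-fold, 0.0111). DECR2, the peroxisomal dienoyl-CoA reductase, was also lower (1.66-fold, adjusted p = 0.003; 1.51-fold, 0.0125). ACOT1 and ACOT2 were lower as well (2.17-fold and 1.79-fold in Lat), but the genes are near-identical neighbours and reads may be split between them, so their levels are uncertain. ACOT1 was at most 0.924 in Lat and at least 2.10 in S-BM, so S-BM carried it through the filter. EHHADH, the peroxisomal bifunctional enzyme, stood at 5.42 ± 1.60 in S-BM and 3.33 ± 1.86 in Lat (adjusted p = 0.051), with Pa at 9.75 ± 1.48 (n = 3). CD36, a fatty acid translocase, ran from 4.15 to 5.71 in Pa and at most 1.32 in any brain-derived library. CPT1C, ACADL, ACADS and ECI2 stayed under 0.46 in every library.

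Other genes of the pathway came from fixed lists. Their shares called are read against the same backgrounds of 59.7% in Lat and 52.7% in M-BM. Among 5 tested genes of uptake and binding, 1 was higher and 2 lower in Lat, as in M-BM (60% called in each): SLC27A3, a transporter of the SLC27 family, was 3.20-fold lower in Lat (7.63 against 26.7; it reached 10 in all S-BM, no Lat and 1 M-BM library, so S-BM carried it through the filter), the peroxisomal tether ACBD5 1.58-fold lower, and ACBD3 1.36-fold higher. Of 19 other mitochondrial acyl-CoA and ketone enzymes, 7 were higher and 9 lower in Lat (84.2% called), and 7 and 6 in M-BM (68.4%). Their largest folds in Lat were ACSF2 (2.86-fold lower), HIBADH of valine breakdown (2.37-fold lower) and MCCC1 of leucine breakdown (1.72-fold lower), and on the other side ECHDC3 (2.60-fold higher), the thioesterase ACOT9 (2.52-fold) and MUT, the methylmalonyl-CoA mutase (1.69-fold). All 6 were called in the same direction in M-BM, with 1.46-fold to 2.46-fold differences. MCCC2, the partner subunit of MCCC1, went the other way. It was 1.41-fold higher in Lat (adjusted p = 0.000334) and 1.51-fold higher in M-BM (adjusted p = 0.000122). ECHDC3 reached 10 in 3 Lat, 1 M-BM and no S-BM library, so it passed the filter through the groups where it was high.

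Among 26 other peroxisomal enzymes and transporters, 3 were higher and 10 lower in Lat (50% called), and 4 and 8 in M-BM (46.2%), both shares below the background. GSTK1 (2.41-fold), the thiolase and sterol carrier SCP2 (2.24-fold) and the ABC transporter ABCD4 (1.92-fold) were lower, while AGPS (1.77-fold) and GNPAT (1.73-fold), the enzymes that start ether lipid synthesis, and MLYCD (1.70-fold), which degrades the CPT1 inhibitor malonyl-CoA, were higher. The list holds ABCD4 although its protein is lysosomal rather than peroxisomal. ABCD4 reached 10 in the 4 S-BM libraries alone and MLYCD in 3 Lat and 1 M-BM. Each thus passed the filter through the groups where it was high. Peroxisome biogenesis (15 tested) had 3 higher and 4 lower in Lat (46.7% called), and 3 and 3 in M-BM (40%), again below the background. PEX6, an ATPase of receptor recycling, was 3.68-fold higher in Lat (8.59 in S-BM, 32.3 in Lat; log2 change 1.88, SE 0.24, adjusted p = 2.19e-05), with 2 S-BM and all Lat and M-BM libraries at 10, and PEX5, the import receptor, was 1.76-fold higher. PEX13 and PEX14 of the docking complex were 1.90-fold and 1.46-fold lower, and PEX11A 1.56-fold lower. In M-BM, PEX11A did not pass (adjusted p = 0.0662).

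Control genes of the PPAR and AMPK routes (18 tested) had 5 higher and 7 lower in Lat, and the same counts in M-BM (66.7% called in each). The AMPK subunits PRKAB2 (2.17-fold) and PRKAA2 (2.13-fold) and the mitochondrial deacylase SIRT5 (2.12-fold) were higher in Lat. PRKAA1, the other catalytic AMPK subunit, was 1.44-fold lower in Lat (231 against 333, adjusted p = 0.00476) and 1.49-fold lower in M-BM (adjusted p = 0.00358); PRKAB1 was 1.35-fold higher in Lat (adjusted p = 0.00699), and PRKAG1 and PRKAG2 were not called. ACACA, which makes malonyl-CoA, was 2.01-fold lower (93.6 against 193), the receptor PPARG 1.91-fold lower and the lipase MGLL 1.61-fold lower. PPARG reached 10 in 3 S-BM, 1 Lat and 1 M-BM library, so it passed mainly through S-BM.

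**Figure D5:**
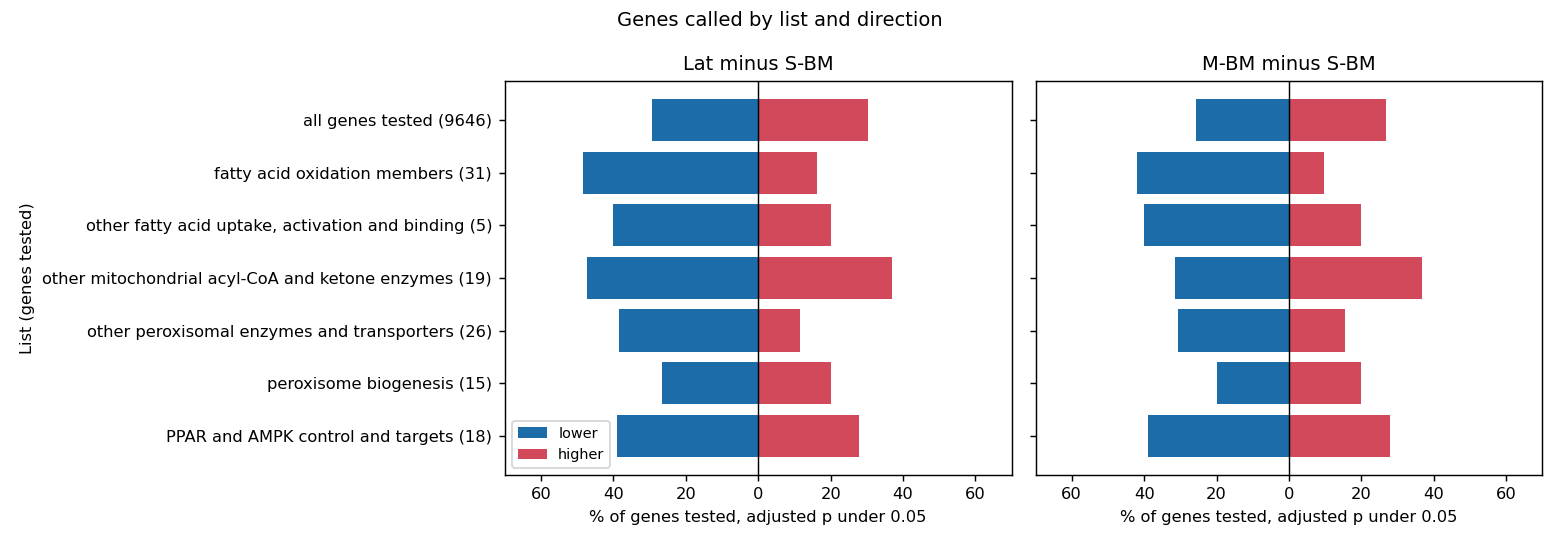
Share of tested genes called lower (blue, to the left) and higher (red, to the right) in Lat and in M-BM against S-BM, in % of the genes tested in each list (number in brackets), with all 9646 genes in the top row. In Lat every list has a longer lower than higher bar; in M-BM this holds except for the other mitochondrial enzymes (7 higher, 6 lower) and peroxisome biogenesis (3 and 3). The bars of all genes are near equal.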

How the data were processed

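The signal deposited by the authors is a normalized count for each gene in each library; its normalization, read counter and annotation were not given in the sources used here. TruSeq RNA v2, a kit that keeps no strand information, was used per the labels' protocols. Alignment to GRCh38 used Bowtie 0.12.2, per the submitters' processing notes. Reads from overlapping or antisense genes cannot be told apart. Every value was a whole multiple of its column's step within 0.05 reads (100% of values), so whole reads were recovered.

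The 12 brain-derived libraries, which stand in the same table, entered a single limma fit (limma 3.58.1, R 4.3.3) of log2(value + 1) on 3 group means, with trended variance and 9 residual degrees of freedom. Genes at 10 or more in at least 4 of the 12 libraries were tested (9646). All p-values are two-sided and Benjamini-Hochberg adjusted over all genes, with calls made under 0.05. Fold changes are on the log2(value + 1) scale, which understates changes of low genes. Levels are not corrected for length and are not compared between genes. Pa, in a separate table, was multiplied by 1.0062, the median ratio over 8841 genes with a mean of 10 or more in both tables, and described only. The fitting steps were tested on simulated data.

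Members and lists were chosen with earlier results of these data known. Values in every library were given for CPT1A and CPT2. The same held for genes called at 1.5-fold or more with non-overlapping groups, and for those at least 1.5-fold outside the other range in Pa. Values of ACOT7, of MCCC2 and of the AMPK subunits PRKAA1, PRKAB1, PRKAG1 and PRKAG2 were added after they were seen. Up to 3 called genes per list and direction were named by their fold in Lat; 1 gene named by this rule is not reported here. Alternatives were other pseudocounts, filters and scalings, edgeR 4.0.16 and DESeq2 1.42.0 on recovered reads, fits of the groups compared alone, a replicate block, each library left out, and S-BM 3 and S-BM 4 left out. Gene positions and promoter sequences are from RefSeq (GRCh38.p14). The tables repeat 2 names, kept at their earlier row.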

Additional observations from a re-analysis of the deposited data

Results flagged for a closer look

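In groups of 4 libraries, 8 of 102 gene and group combinations (7.84%) had a library far enough from the other 3 to pass Dixon's test at its 95% critical value, where chance alone gives about 1 in 20. SLC27A2 stood at 22.5 in M-BM 4, with the other M-BM libraries at 15.6 to 16.7. ACSL3 stood at 308 in M-BM 4, with the others at 293 to 295. ACADSB stood at 13.1 in M-BM 2 (others 11.0 to 11.2). In S-BM 2, HADH stood at 34.5 (others 22.1 to 23.7) and DECR1 at 109 (others 69.2 to 73.0). Lat 3 held the rest: ECHS1 was low at 65.5 (others 73.1 to 74.4), PPARD high at 12.9 (others 8.72 to 9.35) and PPARGC1A high at 6.83 (others 2.003 to 2.44).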

How the results depend on the processing

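Over 23 alternatives no called gene changed direction. Of the single-gene values compared with the reported ones, 2064 stayed on their side of the threshold, 33 lost a call and 25 gained one. The 2064 include genes not called whose fold change changed sign without passing. Genes whose call changed are named with their results. The exceptions are ACSL1, higher in M-BM without S-BM 2 (adjusted p = 0.0402), and SLC22A5, lower in Lat without S-BM 2 (0.0393). Genes higher in Lat against S-BM numbered 3 to 5 when each library was left out in turn, against 5. They numbered 6 without S-BM 3 and S-BM 4. With no filter or the filter at a value of 1, where 34 members were tested, they also numbered 6. In M-BM they numbered 5 without S-BM 3 and S-BM 4, against 3. Genes of the whole table called between M-BM and Lat, 14 as reported, came to 24 with no filter, 26 with the filter at a value of 1, 141 with DESeq2 and 5 with those groups fitted alone, and ran from 2 (without Lat 1 or Lat 2) to 30 (without M-BM 1) when each library was left out, with 3 without M-BM 4 and 6 without M-BM 3; none was among the 31. The cause was not tested. Requiring 2-fold for Pa left 1 gene of 4, PPARGC1A, whose Pa values rest on at most 1 read, so no margin can be read from it. CRAT could not be tested when an S-BM library was left out, since it then missed the filter.

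Replicate numbers are shared between groups in the labels. Residuals of same-numbered libraries correlated at -0.272 to 0.319, with 4 of 12 pairs above 0.1. Those of differently numbered libraries correlated at -0.305 to 0.322, with 7 of 36 pairs above 0.1. The ranges are alike, so pairing by number was neither shown nor excluded. With the replicate number as a block, 5 of the 31 genes were higher and 15 lower in Lat, 2 and 14 in M-BM, and 13 genes of the whole table were called between M-BM and Lat; CPT1A lost its call in M-BM (adjusted p = 0.0638) and ACOX3 gained one (0.0484). Scalings moved the median of all genes by at most 0.02 on the log2 scale. A level under 0.136 to 0.225 rests on fewer than 3 reads.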
